A study of Mus musculus with 64 samples.

Results

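The class I antigen presentation pathway was followed through 10 genes of 36332 in the deposited table: the heavy chain genes H2-Q4, H2-Q7, H2-K1 and H2-D1, the light chain gene B2m, the peptide transporter genes Tap1 and Tap2, the tapasin gene Tapbp, and the immunoproteasome genes Psmb8 and Psmb9. H2-Q4, H2-Q7 and Tap1 were chosen by their measured values, having been seen higher in mice lacking Myc, and the other 7 are their partners in the pathway. The genotype and age differences of the first 3 are therefore given as descriptions without a test, and counts of tested members cover the 7 partners. All 10 were tested between tissues, a contrast the choice did not use.

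Messenger RNA was sequenced from omental fat, liver and skeletal muscle in mice whose Myc gene had been inactivated throughout the body (KO) and in wild-type controls (WT), giving 64 libraries from animals of 5 or 20 months. At 5 months there were 6 libraries per genotype and tissue, apart from KO muscle with 4, and at 20 months there were 5 per genotype and tissue. KO mice came from a cross of B6.129 lines with a cre/ERT2 recombinase at the Gt(ROSA)26Sor locus, which is active in most cell types, and a floxed Myc (tm2Fwa), while WT animals were C57/B6. Per the labels, tamoxifen, which switches this recombinase on, was given to KO and WT alike in 5 daily intraperitoneal injections of 75 mg/kg after weaning at a weight of at least 15 g. WT mice are not labelled as carrying the recombinase. MHC genes differ in sequence between mouse strains, and strain and Myc genotype cannot be told apart here. Single libraries carry their label codes, for example K5S4285, in which the first letter stands for genotype (K, KO or W, WT) and the middle letter for tissue (F, fat; L, liver; S, skeletal muscle). Codes of old animals contain 18 although their other labels give the age used here, 20 months.

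Class I molecules show peptides from inside the cell to CD8 T cells and natural killer cells. The proteasome, which in interferon-treated and immune cells carries the subunits Psmb8 and Psmb9 in place of constitutive ones, cuts proteins into peptides. The Tap1 and Tap2 transporter carries the peptides into the endoplasmic reticulum, and tapasin helps load them onto a heavy chain paired with beta-2-microglobulin, the product of B2m. H2-K1 and H2-D1 encode the classical heavy chains found on nearly all nucleated cells, and H2-Q4 and H2-Q7 encode nonclassical heavy chains, H2-Q7 being a source of the Qa-2 antigen. The genes are known as targets of interferon gamma and of the transactivator Nlrc5. In these tissues hepatocytes, muscle fibres, fat cells, endothelium and resident immune cells can all contribute to the signal.

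In the RefSeq gene table (GRCm38.p6) 9 of the 10 genes lie within 1.52 Mb of chromosome 17. H2-Q4 (ID 15015) lies at chr17:35379617-35384674, H2-Q7 (15018) at chr17:35439140-35443773, H2-K1 (14972) at chr17:33996012-34000619 and H2-D1 (14964) at chr17:35263094-35267497. Tapbp (21356) lies at chr17:33919478-33929290. Psmb9 (16912, chr17:34182030-34187330), Tap1 (21354, chr17:34187556-34197225), Psmb8 (16913, chr17:34198195-34201454) and Tap2 (21355, chr17:34204479-34216321) lie side by side, with 225 bases between the starts of Psmb9 and Tap1, which point away from each other. B2m (12010) lies on another chromosome, at chr2:122147687-122153082. The heavy chain genes have near-identical copies, H2-Q6 beside H2-Q7 among them, so reads can be split or shared between copies and the level of each heavy chain gene is uncertain to that extent.

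Stretches of 120 bases from the RefSeq promoters (GRCm38.p6) are shown because the members varied together between libraries, as described further on. They are reference sequence and were not read from these mice. In the 4 heavy chain promoters the capitals mark TTTCACTTC, which is GAANNGAAA on the other strand, an interferon-response form chosen after the sequences were seen, and in 3 of them also GGGGATTCC, a kappa-B type element. In B2m the capitals mark GAAACTGAA, a match to the interferon-stimulated core GAAANNGAA, which can overlap the other form, and in Psmb8 TTCCCAGAA, a match to the STAT form TTCNNNGAA.
H2-Q4, chr17:35379424-35379543, plus strand: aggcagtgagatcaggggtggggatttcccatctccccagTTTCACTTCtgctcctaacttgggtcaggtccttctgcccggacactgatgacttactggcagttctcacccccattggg
H2-Q7, chr17:35438982-35439101, plus strand: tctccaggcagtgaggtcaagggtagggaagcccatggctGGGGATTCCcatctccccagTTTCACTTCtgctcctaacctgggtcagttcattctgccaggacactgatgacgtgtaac
H2-K1, chr17:34000379-34000498, minus strand: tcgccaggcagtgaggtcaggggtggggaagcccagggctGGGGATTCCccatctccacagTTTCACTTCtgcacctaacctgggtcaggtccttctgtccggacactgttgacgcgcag
H2-D1, chr17:35262883-35263002, plus strand: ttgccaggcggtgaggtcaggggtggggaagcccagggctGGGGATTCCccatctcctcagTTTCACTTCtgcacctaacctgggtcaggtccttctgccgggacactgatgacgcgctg
B2m, chr2:122147508-122147627, plus strand: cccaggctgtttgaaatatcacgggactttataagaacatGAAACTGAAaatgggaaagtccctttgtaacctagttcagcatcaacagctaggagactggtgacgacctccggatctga
Psmb8, chr17:34198058-34198177, plus strand: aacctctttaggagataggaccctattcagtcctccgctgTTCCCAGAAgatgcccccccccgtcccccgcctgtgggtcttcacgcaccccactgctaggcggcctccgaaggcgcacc

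Over the first 49 bases of these stretches, H2-K1 and H2-D1 had 47 bases in common, H2-Q7 and H2-K1 had 45, and H2-Q7 and H2-D1 had 43. These 49 bases end with GGGGATTCC, on which the stretches were placed, so its 9 bases were alike beforehand. H2-Q4, which lacks that exact match, was not compared. Its stretch holds ggggatttcc ahead of TTTCACTTC, and such variants of the element were not searched. GGGGATTCC occurred, on either strand, in 0.213% of 32851 promoters of 250 bases, GAANNGAAA in 6.31%, GAAANNGAA in 7.13% and TTCNNNGAA in 7.02%. CACGTG, the E-box bound by Myc and Max, was in none of the members' windows and in 6.02% of all promoters, and the absence of these letters from the windows says nothing about binding elsewhere. CCAAT was within 250 bases of the start of all members with a promoter entry except Psmb8, against 33.8% of all promoters. The entries covered 9 members, with Tap2 as the one without. Tap1, Tapbp and Psmb9 held none of the capitalised forms in their 250 bases. A match is a description of the letters and not evidence of a bound site.

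Libraries had 15.4 to 28.5 M reads on genes, with a median of 19.6 M. The deposited values, called CPM in the file header, were used as a signal scaled per library. They do not account for gene length, so levels are compared between libraries and not between genes. Mean Myc was lower in KO than in WT in all 6 pairs of groups, from 2.59 ± 1.06 CPM (SD, n = 6) against 19.6 ± 10.3 (n = 6) in liver at 5 months to 5.98 ± 3.83 (n = 5) against 7.91 ± 3.21 (n = 5) in muscle at 20 months. Its difference was called at 5 months in adipose tissue (limma adjusted p = 0.017) and liver (limma adjusted p = 0.00093). It was not called in muscle at 5 months or in any tissue at 20 months, where muscle stood at -0.49 ± 0.51 (log2, SE). At 5 months 2 libraries of each group had Xist, and every library at 20 months had Y-chromosome transcripts, so the ages differ in sex as well. The fat cell marker Adipoq was at 610 CPM or more in adipose libraries and at most 0.205 in liver, where it was at 0 in 15 of 22 libraries. Alb, for hepatocytes, was at 76582 CPM or more in liver, and Ckm, for muscle fibres, at 19478 or more in muscle. Outside liver Alb reached 514 CPM in adipose tissue and 1970 CPM in muscle. The library W18S42 (WT muscle, 20 months) held 2951 CPM of summed hepatocyte markers, against a group median of 4.47. It was also the highest of its group for H2-K1, H2-D1 and B2m. The part of liver RNA in its values was not tested. In adipose tissue 5 libraries held over 10 CPM of summed epididymis and gonad markers. The sums were 6280 CPM in K5F4284, 973 in K5F5218, 4050 in K5F5248, 933 in W5F5299 and 15.8 in K18F26, so at 5 months most were KO. K5F5218 or K5F5248 was the lowest KO adipose library at 5 months for every member but Tap2, where K5F4284 was. For H2-K1, K5F4284 was near the top of its group (1396 CPM, highest 1426). The part of this other tissue in the members' values was not tested. The labels do not say whether libraries of a group came from separate mice, and p-values measure the spread between these libraries.

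**Figure D1:**
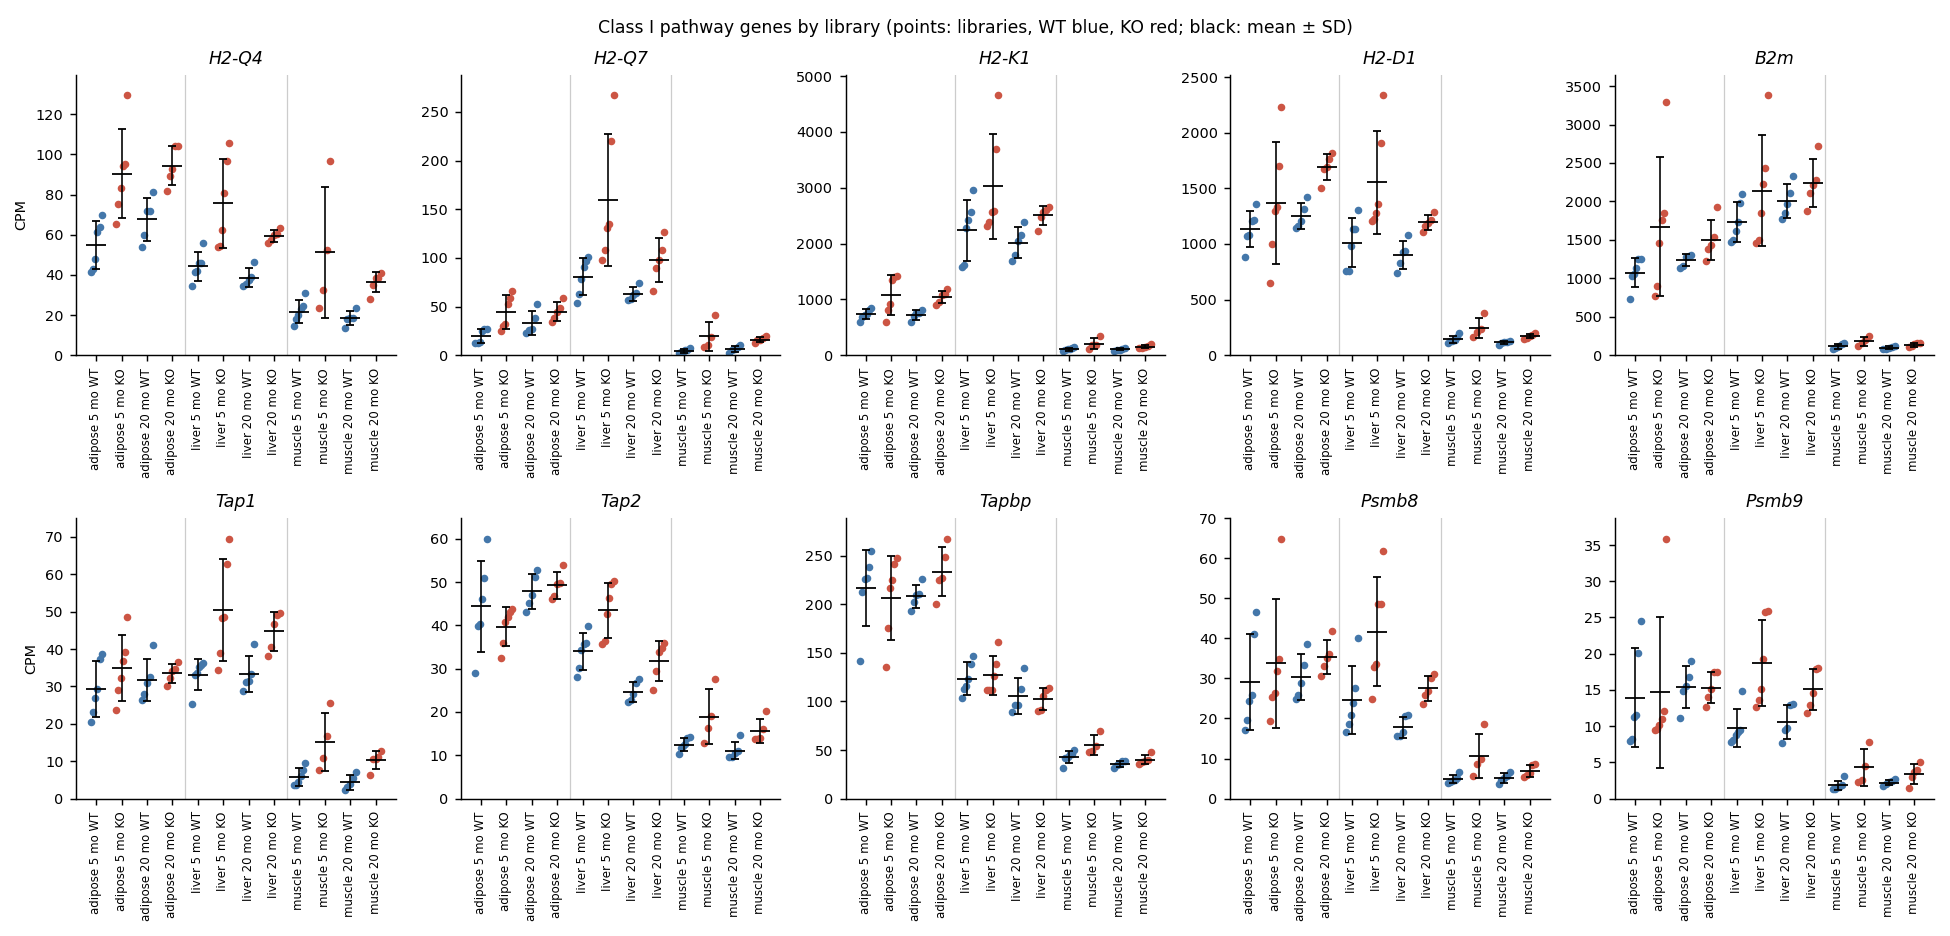
Deposited CPM of the 10 members (linear axis from 0) in every library, by tissue, age and genotype, with WT in blue, KO in red and the group mean ± SD in black. All members were lowest in muscle, and single libraries stood high in 3 KO groups at 5 months.

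The pathway was expressed in all 3 tissues of WT mice, and all 10 genes were lower in muscle than in adipose tissue or liver at both ages. In WT at 5 months H2-K1 averaged 108 ± 23.2 CPM in muscle, 733 ± 89.9 in adipose tissue and 2235 ± 545 in liver (SD, n = 6 each). B2m averaged 115 ± 30.8 CPM in muscle, 1076 ± 193 in adipose tissue and 1735 ± 257 in liver. The groups of these 3 tissues did not overlap for either gene at 5 months. Psmb9, a catalytic immunoproteasome subunit, averaged 1.81 ± 0.669 CPM in muscle, 13.9 ± 6.81 in adipose tissue and 9.70 ± 2.63 in liver.

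Muscle was below adipose tissue with a median log2 difference of -2.30 over the 10 members at 5 months (limma 10 of 10 lower, 68.9% of all genes tested called in either direction) and of -2.43 at 20 months (10 of 10, 80.2% of all genes). The members' differences ran from -3.23 for B2m to -1.30 for H2-Q4 at 5 months. Muscle against liver gave 10 of 10 lower at 5 months (73.1% of all genes called) and at 20 months (79.8%), from -4.35 for H2-K1 to -1.01 for H2-Q4 at 5 months. The median difference of all genes tested was -0.15 between muscle and adipose tissue and 0.01 between muscle and liver at 5 months. With reads scaled to the library total, where the median of all genes moved to -0.88 and 0.21, the members stayed called in the same direction in these muscle comparisons, with differences of -4.10 to -2.15 against adipose tissue and -4.08 to -0.74 against liver at 5 months.

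Liver and adipose tissue differed gene by gene. At 5 months (69.7% of all genes called) H2-Q7 was higher in liver by 2.02 ± 0.26 on the log2 scale (SE, limma adjusted p = 8.3e-07), H2-K1 by 1.58 ± 0.18 (adjusted p = 2.6e-07) and B2m by 0.70 ± 0.19 (limma adjusted p = 0.0026). Tapbp was lower in liver (-0.80 ± 0.15, limma adjusted p = 7.7e-05), as was Tap2 (-0.35 ± 0.15, limma adjusted p = 0.045). The Tap2 call was lost with edgeR and when W5F5005, W5F5006, W5F5277, W5L5004, W5L5005, W5L5041, W5L5277 or W5L5299 was left out (limma adjusted p up to 0.12, without W5F5277). The other 5 members did not pass the test. At 20 months (80% of all genes called) the same 3 genes were higher in liver, and H2-Q4, H2-D1, Tap2, Tapbp, Psmb8 and Psmb9 were lower, with Tap1 not called. The ratio of H2-K1 to H2-D1, whose size depends on gene length and is compared between tissues only, was 2.01 to 2.62 per WT liver library at 5 months and 0.607 to 0.675 per adipose library. That of H2-Q7 to H2-Q4 was 1.51 to 2.20 against 0.285 to 0.441.

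The liver and adipose result turned on the scaling. Scaled to library totals, the median of all genes moved from -0.03 to -0.999 at 5 months and from -0.05 to -0.91 at 20 months, and calls over all genes went from 4799 higher and 5024 lower to 1775 and 9930 at 5 months. Under that scaling B2m was lower in liver (-0.44 and -0.31 at 5 and 20 months), Tap1 was lower (-0.91 at both), and H2-Q7 stood at 0.91 and -0.03. H2-K1 stayed higher (0.44 and 0.47). B2m, H2-Q7 and H2-K1 lay above the median of all genes under either scaling at both ages.

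**Figure D2:**
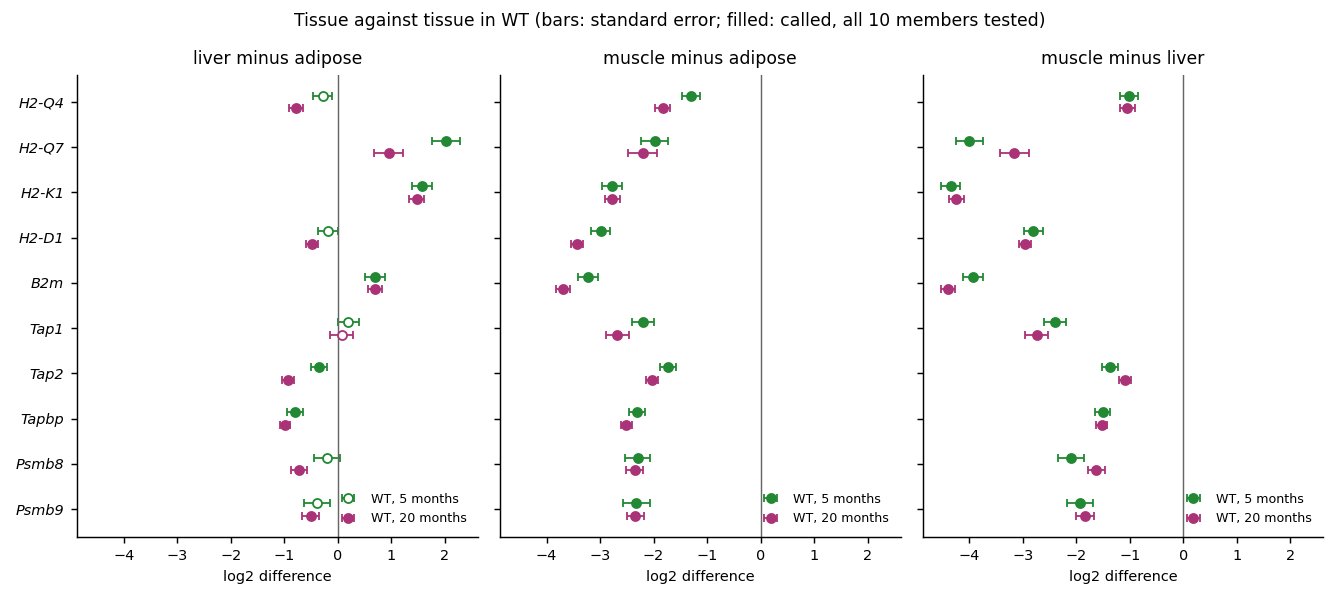
Differences between tissues in WT mice on the log2(CPM + 1) scale for each member (x axis, log2 difference, with its standard error), at 5 and 20 months, filled where limma called the gene. All points against muscle lie below 0, while liver minus adipose tissue spreads from -0.80 to 2.02 at 5 months.

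Between genotypes, 38 of the 42 pairs of group means of the 7 partners were higher in KO, while 43.6% to 52.9% of all genes had a log2 difference above 0, depending on the comparison. The differences of the genes chosen for being higher are given as a description. H2-Q7 ran in adipose tissue at 5 months from 24.7 to 66.4 CPM in KO (median 42.5, n = 6) and from 12.7 to 27.2 in WT (median 19.1, n = 6), a difference of 1.10 ± 0.27 on the log2 scale (SE). All but 1 of its KO libraries were above every WT library. In liver at 5 months it ran from 98.1 to 267 CPM in KO (median 133) and from 53.9 to 101.2 in WT (median 84.3), a difference of 0.91 ± 0.21. In muscle at 5 months its 4 KO values were 8.57, 10.4, 18.5 and 40.9 CPM and WT ran from 1.89 to 7.11 (median 4.18), a difference of 1.80 ± 0.37, and these groups did not overlap.

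At 20 months the KO difference of H2-Q7 was smaller than at 5 months, a description that was not tested. The KO effect changed with age by -0.65 ± 0.40 for adipose tissue and by -0.31 ± 0.32 for liver (log2, SE). For muscle the 5-month difference was 1.37 ± 0.33 without K5S4285, the highest library, close to the 20-month value below. The values of H2-Q7 at 20 months follow. Its KO values in adipose tissue were 33.9, 38.2, 44.2, 48.3 and 59.0 CPM, and its WT values 22.4, 26.0, 27.1, 38.4 and 52.9, so the groups overlapped (0.45 ± 0.29, SE). In liver KO values were 65.8, 89.8, 98.0, 109 and 126 CPM and WT values 56.5, 57.9, 61.6, 63.5 and 74.3 (0.61 ± 0.24). In muscle KO values were 12.1, 15.2, 15.7, 17.5 and 20.1 CPM and WT values 2.55, 5.61, 6.0, 8.42 and 10.7, without overlap (1.25 ± 0.36).

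H2-Q4, its nonclassical neighbour, differed by 0.71 ± 0.16 for adipose tissue, 0.72 ± 0.15 for liver and 1.03 ± 0.28 for muscle at 5 months, and by 0.48 ± 0.18, 0.61 ± 0.16 and 0.96 ± 0.27 at 20 months (log2, SE). At 20 months its KO and WT libraries did not overlap in any of the tissues. The margin was narrow in adipose tissue, where the lowest KO library had 81.9 CPM and the highest WT library 81.2. In liver at 20 months KO libraries had 55.7, 57.6, 59.8, 60.4 and 63.6 CPM and WT libraries 34.7, 35.6, 37.6, 39.0 and 46.3. In muscle at 20 months KO libraries had 28.1, 35.2, 38.7, 38.7 and 41.05 CPM and WT libraries 13.5, 17.9, 18.4, 18.6 and 23.3.

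None of the 7 partners passed the limma test in any of the 6 comparisons of KO with WT. The background was as low: 0.105% of all genes were called in adipose tissue at 5 months and 0% at 20 months, 0.0696% and 0.0232% in liver, and 0% and 0.0302% in muscle. At an unadjusted p under 0.05 limma counted 1 of 7 partners in adipose tissue at 5 months and 1 at 20 months, 5 and 4 in liver, and 7 and 4 in muscle, against 11.8% and 2.25%, 6.94% and 5.80%, and 4.10% and 13.8% of all genes. These counts come from the libraries that the choice used, so they are not independent of it either. edgeR on recovered reads also called no partner, and DESeq2 called H2-K1 in adipose tissue and Psmb9 in liver at 5 months and no other. The median difference over the 7 partners at 5 and 20 months was 0.18 and 0.23 in adipose tissue and 0.43 and 0.35 in liver. In muscle it was 0.73 and 0.45, while that of all genes lay between -0.04 and 0.01 in these comparisons. Over all 10 members it was 0.22 and 0.25 in adipose tissue, 0.58 and 0.42 in liver, and 0.84 and 0.53 in muscle. The 10 include the 3 chosen genes, so these last medians are raised by the choice and are a description only.

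**Figure D3:**
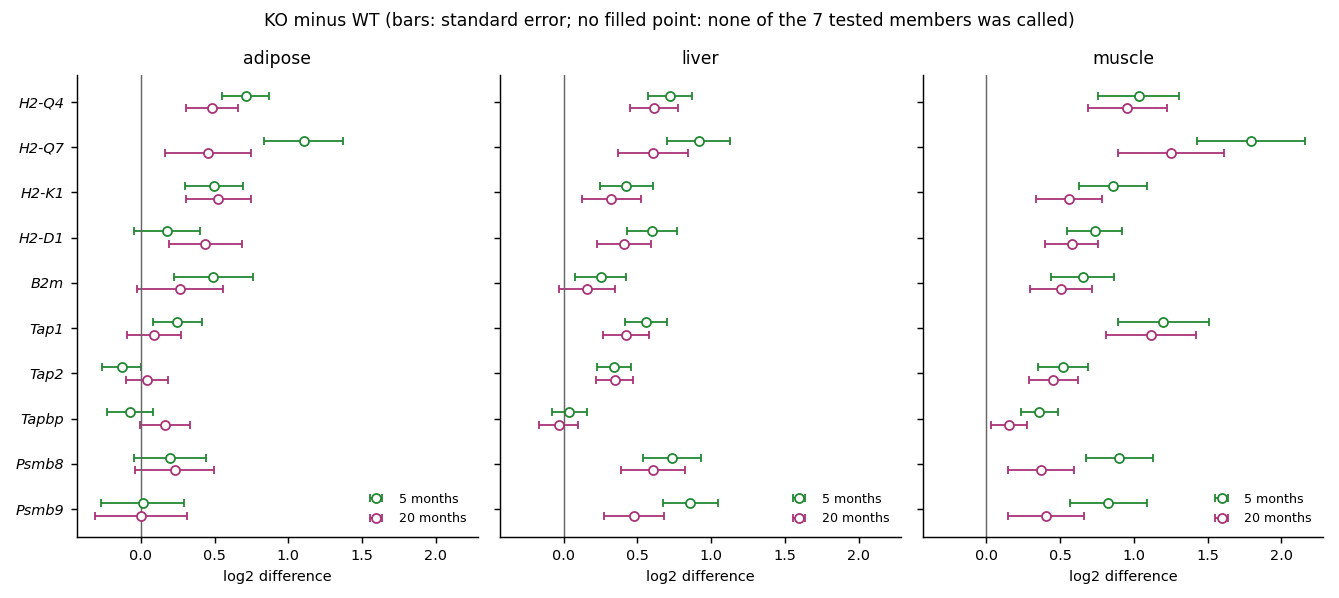
KO minus WT for each member in each tissue at 5 months (green) and 20 months (purple), as a log2 difference with its standard error on the x axis. H2-Q7, H2-Q4 and Tap1 were chosen for being higher in KO, and the other 7 members lie between -0.13 and 0.90 with none called by limma.

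The classical heavy chain H2-K1 had 591 to 1426 CPM in KO adipose tissue at 5 months (median 1127) and 597 to 842 in WT (median 729), a difference of 0.49 ± 0.20 (SE, limma adjusted p = 0.35). DESeq2 called it (0.62, DESeq2 adjusted p = 0.036). In the other settings run, edgeR and limma without the libraries with Xist or epididymis markers among them, the adjusted p lay between 0.18 and 0.36. At 20 months KO values were 905, 946, 1077, 1099 and 1181 CPM and WT values 589, 696, 763, 763 and 808, and every KO library was above every WT library (0.53 ± 0.22, limma adjusted p = 1). In muscle at 20 months KO values were 136, 138, 148, 160 and 198 CPM and WT values 84.1, 96.0, 96.2, 119.4 and 134.5, again without overlap (0.56 ± 0.23, limma adjusted p = 0.32).

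H2-D1, the other classical heavy chain, showed no overlap at 20 months in any tissue. In adipose tissue its KO values were 1502, 1678, 1694, 1761 and 1817 CPM and its WT values 1146, 1158, 1208, 1317 and 1418 (0.44 ± 0.25, SE, limma adjusted p = 1). In liver KO values were 1108, 1162, 1189, 1218 and 1292 CPM and WT values 743, 830, 924, 940 and 1078 (0.41 ± 0.18, limma adjusted p = 0.82). In muscle KO values were 150, 152, 177, 182 and 202 CPM and WT values 96.7, 107, 120, 124 and 130 (0.58 ± 0.18, limma adjusted p = 0.29). At 5 months its groups overlapped in the 3 tissues.

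Groups without overlap and with KO higher were counted for all genes as a background. In adipose tissue at 20 months 3 members met this (H2-Q4, H2-K1 and H2-D1) against 0.644% of all genes, in liver 3 (H2-Q4, H2-D1 and Psmb8) against 1.45%, and in muscle 4 (H2-Q4, H2-Q7, H2-K1 and H2-D1) against 1.28%. At 5 months muscle had 1 (H2-Q7) against 0.506% of all genes, and adipose tissue and liver had none, against 0.098% and 0.139%. H2-Q4 and H2-Q7 in these counts are there by choice. Near-identical heavy chain genes can share reads, so their values may not be independent of each other.

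B2m, the light chain shared by the class I molecules, ran from 774 to 3289 CPM in KO adipose tissue at 5 months (median 1610) and from 735 to 1257 in WT (median 1091), a difference of 0.49 ± 0.27 (SE, limma adjusted p = 0.47). Its difference was 0.27 ± 0.29 in adipose tissue at 20 months, 0.25 ± 0.17 and 0.16 ± 0.19 in liver, and 0.65 ± 0.21 and 0.51 ± 0.21 in muscle. Its groups overlapped in every comparison.

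Among the transporter genes, Tap1 differed by 0.25 ± 0.17 and 0.09 ± 0.18 in adipose tissue, 0.56 ± 0.14 and 0.42 ± 0.16 in liver, and 1.20 ± 0.31 and 1.12 ± 0.30 in muscle at 5 and 20 months (log2, SE). In muscle at 5 months its 4 KO values were 7.71, 10.8, 16.7 and 25.4 CPM and WT ran from 3.59 to 9.39 (median 5.21), with the lowest KO library inside the WT range. At 20 months KO values in muscle were 6.23, 10.5, 10.6, 11.05 and 12.8 CPM and WT values 2.20, 3.03, 3.89, 5.48 and 7.21, again with 1 KO library inside the WT range. Tap2, its partner chain, differed by -0.13 ± 0.13 and 0.04 ± 0.14 in adipose tissue, 0.34 ± 0.11 and 0.35 ± 0.13 in liver, and 0.52 ± 0.17 and 0.45 ± 0.17 in muscle.

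Tapbp, the loading chaperone gene, was the member with the smallest median KO difference over the comparisons, between -0.07 ± 0.15 in adipose tissue and 0.36 ± 0.13 in muscle at 5 months (SE). In liver its KO libraries ran from 112 to 161 CPM and WT from 103 to 147 at 5 months, and the groups overlapped throughout.

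The immunoproteasome genes were not called by limma in any tissue. Psmb9 in liver at 5 months ran from 12.7 to 25.8 CPM in KO (median 17.2) and from 7.81 to 14.9 in WT (median 8.95), a difference of 0.86 ± 0.19 (SE, limma adjusted p = 0.12). DESeq2 called it (0.93, DESeq2 adjusted p = 0.011), and limma did without the WT library W5L5005, the highest of its group (0.98, limma adjusted p = 0.040). Psmb8 differed there by 0.74 ± 0.20 (limma adjusted p = 0.26). At 20 months its KO values in liver were 23.6, 25.9, 26.8, 30.1 and 31.2 CPM and its WT values 15.5, 15.6, 16.6, 20.51 and 20.8, without overlap (0.61 ± 0.22, limma adjusted p = 0.75). In adipose tissue Psmb9 differed by 0.01 ± 0.28 and -0.00057 ± 0.31 and Psmb8 by 0.20 ± 0.25 and 0.23 ± 0.27 at 5 and 20 months. In muscle Psmb9 differed by 0.83 ± 0.26 and 0.40 ± 0.26 and Psmb8 by 0.90 ± 0.23 and 0.37 ± 0.22.

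A single KO library stood highest for most members in each tissue at 5 months. In muscle K5S4285 held the highest value of all 10 members. It also held 37.4 CPM of summed T and NK cell markers and 51.4 CPM of B and plasma cell markers, against 1.11 to 7.91 and 0.903 to 12.5 over the other muscle libraries. Without it the median KO difference in muscle at 5 months was 0.55, with 10 of 10 members above 0, and H2-Q7 stood at 1.37 ± 0.33, H2-Q4 at 0.66 ± 0.23 and Tap1 at 0.92 ± 0.31 (SE). In adipose tissue K5F5118 had the highest B2m (3289 CPM), Psmb8 (64.9) and Psmb9 (35.9). It also had the highest macrophage and dendritic cell marker sum of its age (4143 CPM, against 1033 to 3244 in the other KO and 1311 to 2126 in the WT libraries). It was the highest of its group for other sums too: adipocyte markers (37825 CPM), class II genes (3756), constitutive proteasome genes (1742) and interferon targets (1746). Without it Psmb9 stood at -0.27 ± 0.22, Psmb8 at -0.01 ± 0.21 and H2-D1 at 0.01 ± 0.21, the median was 0.12, and 6 of 10 members were above 0. In liver K5L4285 was the highest KO library for all 10 members, and without it the median was 0.46 with 9 of 10 above 0. It also had the highest class II (850 CPM) and T and NK cell marker sums (21.9 CPM) of its group. The medians and counts without these libraries include H2-Q4, H2-Q7 and Tap1, which were chosen for being higher in KO. Apart from these genes, every member stayed above 0 in muscle, and every one but Tapbp in liver. In adipose tissue B2m, H2-K1 and H2-D1 stayed above 0, while Tapbp, Tap2, Psmb8 and Psmb9 were below. Single libraries moved the medians over all 10 members upward as well. They stood at 1.07 in muscle without K5S5118, 0.36 in adipose tissue without K5F5218 and 0.66 in liver without K5L5248, all at 5 months. K5L4285 and K5S4285 share the digits that end their names, as does K5F4285, the highest KO adipose library at 5 months for H2-Q4, Tap1 and Tap2. Whether these digits mark 1 mouse is not stated in the labels.

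Markers of immune cells differed beside the members in some groups, in either direction. In liver at 5 months Cd8a, the CD8 T cell coreceptor, rose in KO (1.26 ± 0.17, limma adjusted p = 0.00093), as did Gzmb, a granzyme of cytotoxic cells (0.97 ± 0.19, limma adjusted p = 0.049), 2 of 7 T and NK cell markers tested (0.0696% of all genes called). The summed T and NK cell markers ran from 10.4 to 21.9 CPM in KO and from 5.20 to 10.7 in WT liver at 5 months, and from 9.33 to 15.8 and 4.31 to 12.4 at 20 months. Cd8a was low in both groups at 5 months, from 0.955 to 2.74 CPM in KO and from 0 to 0.167 in WT liver. It was at 0 in 1 of the 6 WT libraries. Summed macrophage and dendritic cell markers in liver ran from 583 to 1056 CPM in KO and 353 to 838 in WT at 5 months, with 13 of 14 markers above 0 and none called, and from 373 to 506 and 284 to 424 at 20 months, with 12 of 14 above 0 and none called.

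In muscle at 20 months the same sum ran from 132 to 298 CPM in KO and 73.8 to 176 in WT, with 10 of 11 markers above 0 and none called, and in adipose tissue at 20 months from 2009 to 4183 and 1390 to 2867, with 11 of 15 above 0 and none called. Adgre1, a macrophage marker, had reads in every library, and Cd3e, a T cell marker, was at 0 in 3 of 6 WT muscle libraries at 5 months and 3 of 5 at 20 months. B and plasma cell markers went the other way in liver at 20 months, with sums of 8.54 to 14.8 CPM in KO and 14.1 to 24.3 in WT, 0 of 7 markers above 0 and none called. In adipose tissue at 20 months the median sum was 40.7 CPM in KO and 44.5 in WT for T and NK cell markers, and 146 and 169.6 for B and plasma cell markers, of which 1 of 12 and 0 of 10 were above 0 and none was called. The part of these cells in the members' values was not tested. In such bulk samples more cells of a type and more RNA per cell cannot be told apart.

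With age, few partners changed. Tap2 fell in WT liver by 0.44 ± 0.12 on the log2 scale from 5 to 20 months (SE, limma adjusted p = 0.028, 7.19% of all genes called), and it fell in KO liver by 0.44 ± 0.12 (limma adjusted p = 0.048, 2.99% of all genes). WT libraries ran from 28.1 to 39.9 CPM at 5 months (median 35.0) and had 22.3, 22.8, 24.1, 26.7 and 27.5 CPM at 20 months, without overlap. KO libraries ran from 35.6 to 50.2 CPM at 5 months (median 44.5) and had 25, 29.4, 33.9, 34.9 and 35.9 CPM at 20 months, with an overlap at the edge.

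Tapbp fell in KO muscle by 0.45 ± 0.13 (limma adjusted p = 0.049, 5.57% of all genes called), from 48.2, 49.0, 53.8 and 70.0 CPM at 5 months to 35.1, 37.9, 39.1, 39.9 and 47.6 at 20 months, without overlap. In WT muscle its difference was -0.25 ± 0.12 (limma adjusted p = 0.14). These 3 calls were close to the threshold. Over fits that each left out 1 library, Tap2 was called in 5 of 11 in WT liver, and lost without W18L01, W18L02, W18L05, W5L5004, W5L5041 or W5L5042 (highest limma adjusted p = 0.075). In KO liver it was called in 3 of 11, and lost without K18L06, K18L07, K18L09, K18L10, K5L4284, K5L4285, K5L5116 or K5L5118 (highest limma adjusted p = 0.14). Tapbp in KO muscle was called only in the fit without K18S63, 1 of 9, with a highest limma adjusted p of 0.14 without K5S4285, the highest library at 5 months. With sex as a covariate, which differs between the ages, Tap2 was no longer called in WT liver (limma adjusted p = 0.062) or KO liver (limma adjusted p = 0.081), nor without the Xist libraries (0.15 and 0.087), while Tapbp in KO muscle was called in both settings (0.020 and 0.032). Scaled to library totals none was called, with differences of -0.23, -0.24 and -0.31, while the median of all genes moved to 0.17 in WT liver, 0.15 in KO liver and 0.10 in KO muscle.

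No partner was called with age in WT adipose tissue (10.8% of all genes called), KO adipose tissue (14.2%) or WT muscle (18.6%) by limma, edgeR or DESeq2, with 0, 1 and 0 of 7 at an unadjusted limma p under 0.05. In KO muscle all 10 members had lower means on the log2 scale at 20 months (median -0.36), and without K5S4285 3 of 10 were above 0 (median -0.10). In liver 3 of 10 members were above 0 with age in WT (median -0.17) and 1 of 10 in KO (median -0.30), the latter being B2m (0.12 ± 0.18). H2-Q7 differed most with age in WT adipose tissue (0.74 ± 0.28), against 0.09 ± 0.28 in KO.

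**Figure D4:**
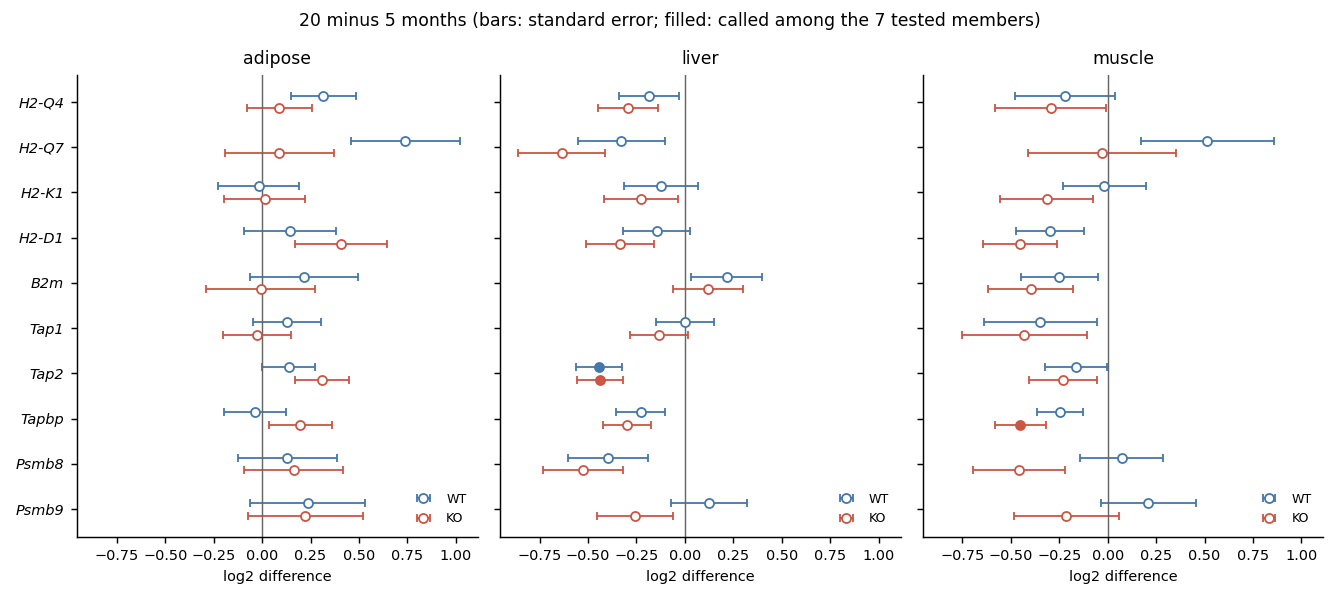
Difference from 5 to 20 months for each member in WT (blue) and KO (red), as a log2 difference with its standard error on the x axis, filled where limma called one of the 7 tested members. Tap2 in liver of both genotypes and Tapbp in KO muscle are filled, at -0.44, -0.44 and -0.45.

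The difference between the KO effects at the 2 ages was tested as an interaction. It called no partner in adipose tissue, liver or muscle with limma, edgeR or DESeq2, with 0 of 7 at an unadjusted limma p under 0.05 in each, and 0% of all genes in each tissue. The values for the partners ran from -0.53 ± 0.32 (Psmb8, muscle) to 0.26 ± 0.34 (H2-D1, adipose tissue), on standard errors of 0.17 to 0.42. Without the libraries with epididymis markers that of H2-D1 in adipose tissue was -0.098.

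The wider pathway was examined through fixed lists of genes outside the 10. In the comparisons of KO with WT none of these lists had a called gene. Of 13 other class I genes tested in adipose tissue, 7 were above 0 at 5 months (median 0.03) and 10 at 20 months (median 0.17). Of 11 tested in muscle, 9 were above 0 at 5 months (median 0.24) and 8 at 20 months (median 0.09). Of 14 tested in liver, 10 were above 0 at 5 months (median 0.25) and 9 at 20 months (median 0.08), and their summed level there had medians of 5819 CPM in KO and 5892 in WT at 5 months. H2-Q6, the close copy beside H2-Q7 and named after its values were seen, differed by 0.51 and 0.52 in adipose tissue, 1.0 and 0.93 in liver, and 1.6 and 1.20 in muscle at 5 and 20 months, a pattern that reads shared with H2-Q7 would also give. The immunoproteasome subunit and proteasome activator genes outside the members (Psmb10 and Psme1 to Psme4, 5 genes) had medians between -0.15 and 0.04. Loading and trimming genes such as the chaperones Calr and Canx (11 genes) had medians between -0.11 and 0.11, and 15 constitutive proteasome genes between -0.24 and 0.14.

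Interferon targets such as Ifit1 and Oas2 leaned to KO in liver, with 31 of 38 above 0 at 5 months (median 0.21) and 36 of 38 at 20 months (median 0.26), and in muscle, with 29 of 35 above 0 at 5 months (median 0.27) and 29 at 20 months (median 0.29). In adipose tissue 23 and 27 of 38 were above 0 (medians 0.18 and 0.11). None was called. Regulators of class I genes, such as Nlrc5 and Irf1, had medians between 0.01 and 0.21. Class II genes, which present peptides on macrophages, dendritic cells and B cells, had 7 of 8 above 0 in liver at 5 months (median 0.45) and at 20 months (median 0.54), 8 of 8 in muscle at 5 months (median 0.90) and 7 of 8 at 20 months (median 0.35), and 2 and 7 of 11 in adipose tissue (medians -0.11 and 0.03), none called.

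With age, genes of these lists were called in both directions. The trimming peptidase Lnpep rose in adipose tissue (2.12 ± 0.33 in WT and 2.09 ± 0.33 in KO, SE) and in muscle (1.61 ± 0.22 and 1.86 ± 0.24), each called by limma. Stat2, a mediator of type I interferon signals, rose in liver (0.67 ± 0.20 in WT and 1.01 ± 0.20 in KO, limma adjusted p = 0.046 and 0.0093), and the interferon receptor chain Ifnar2 fell there by 0.47 ± 0.11 in WT (limma adjusted p = 0.011) and by 0.43 ± 0.11 in KO (limma adjusted p = 0.032). Ctss, a protease of class II processing, fell in liver by 0.92 ± 0.19 in WT and by 0.82 ± 0.19 in KO, and H2-Q2 and H2-M3, other class I genes, fell in KO liver by 0.80 ± 0.18 and 0.61 ± 0.17. Irf1, a transcription factor for class I genes, rose in KO adipose tissue (0.57 ± 0.15, limma adjusted p = 0.019). Of 10 B and plasma cell genes tested in adipose tissue, 8 rose with age in WT (10.8% of all genes called) and 5 in KO (14.2%), among them Ms4a1 (2.59 ± 0.38 in WT). Of 14 macrophage and dendritic cell markers tested in liver, 6 fell in WT (7.19% of all genes called in either direction) and 5 in KO (2.99%), among them the Kupffer cell gene Timd4, by 1.06 ± 0.29 and 1.11 ± 0.29.

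The 118 genes between Tapbp and H2-Q7 on chromosome 17 placed the members among their neighbours. At 5 months the 9 members of this span had a median KO difference of 0.20 for adipose tissue, 0.60 for liver and 0.86 for muscle, and the other genes tested there medians of -0.03 (71 genes), -0.09 (64) and 0.09 (62). At 20 months the members' medians were 0.23, 0.42 and 0.56 and those of the others 0.02, 0.07 and -0.02. H2-Q4, H2-Q7 and Tap1, chosen for being higher, are among the 9. The medians of the other 6 members there were 0.09 (adipose tissue), 0.51 (liver) and 0.78 (muscle) at 5 months, and 0.19, 0.38 and 0.43 at 20 months. None of these 6 members or of the non-member genes tested in the span was called in these comparisons. H2-Q4, H2-Q7 and Tap1 are given here as descriptions without a test. The class II genes beside Tap2, named after their values were seen, were mixed. H2-Ob, the nearest, differed by -0.24 and -0.53 in liver and by 0.85 and -0.24 in muscle at 5 and 20 months. H2-Ab1, H2-Aa and H2-Eb1 differed by 0.65, 0.53 and 0.62 in liver and by 1.04, 1.01 and 1.04 in muscle at 5 months, and by 0.75, 0.56 and 0.59 in liver and 0.40, 0.39 and 0.32 in muscle at 20 months. Genes that lie between members, of which 2 were also picked after their values were seen, included values near 0 at 5 months, such as Brd2 (0.06, -0.09 and -0.05 in adipose tissue, liver and muscle) and Ring1 (-0.03, 0.16 and 0.09). Ring1 stood at 0.51 in liver at 20 months.

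**Figure D5:**
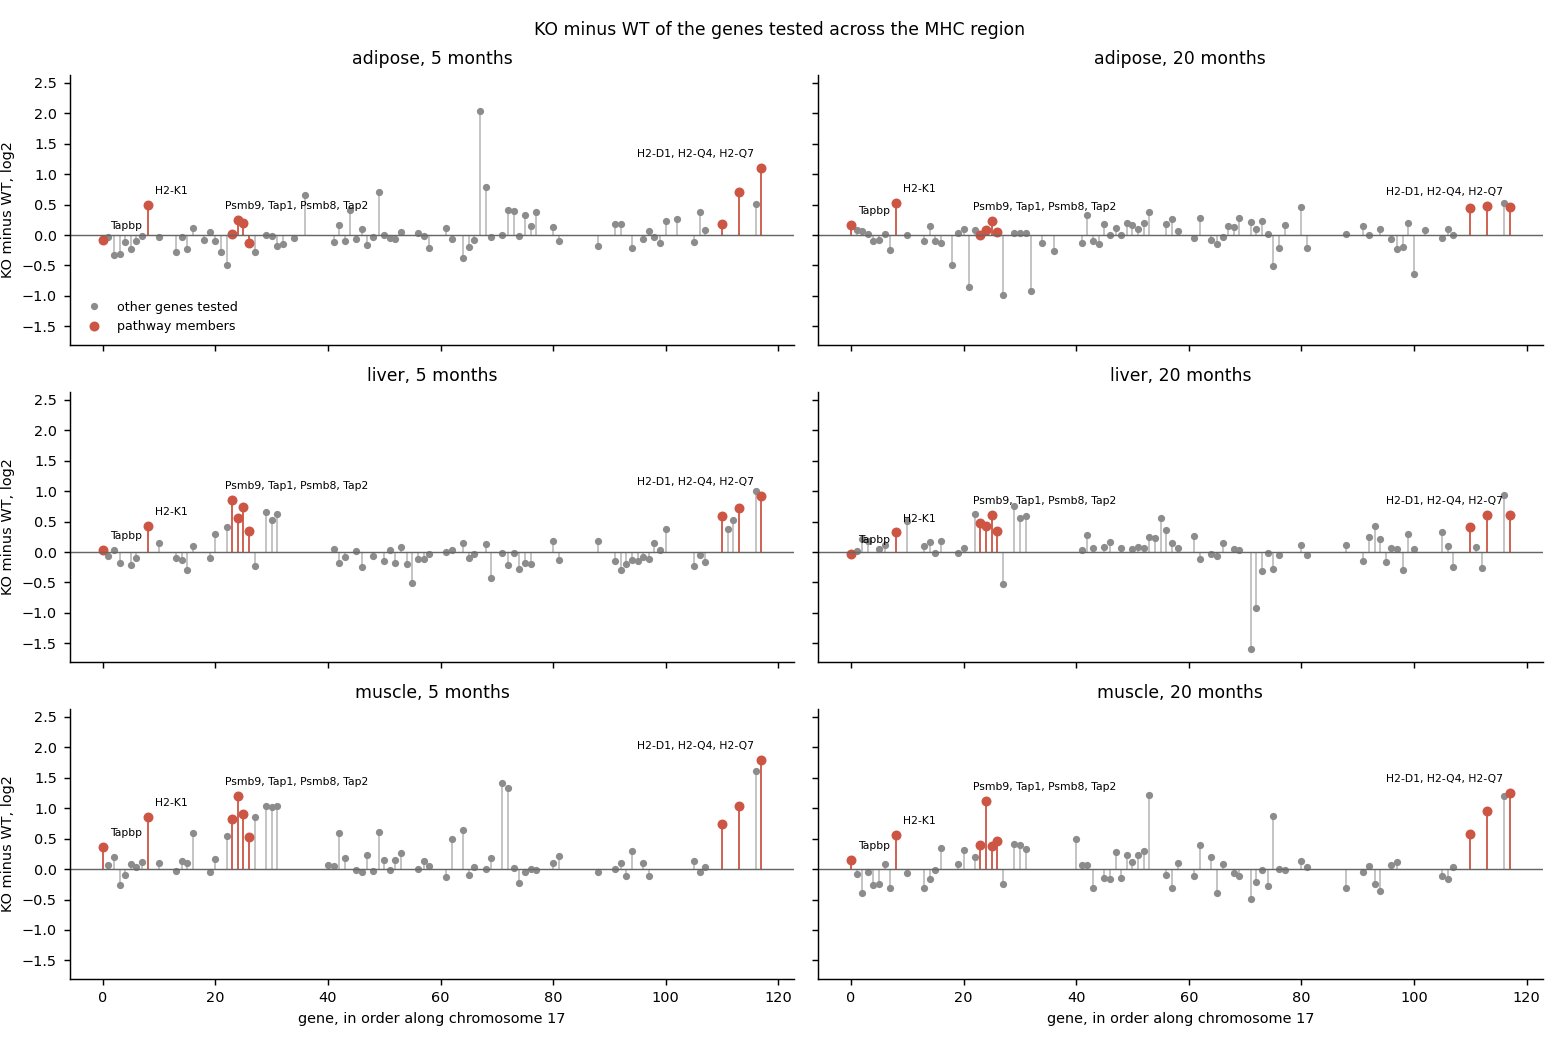
KO minus WT (y axis, log2 difference) of the genes tested across the 118 genes of the MHC span, ordered by position on the x axis, with members in red and other genes in grey. Members stand above 0 in liver and muscle, apart from Tapbp near 0 in liver.

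Within groups the members varied together between libraries, as a description. With values centred on their group means, all 45 pairs of members had a positive Pearson r in each tissue, with a median of 0.59 for adipose tissue (22 libraries), 0.55 for liver (22) and 0.72 for muscle (20). H2-K1 and H2-D1 reached 0.84, 0.97 and 0.90 in these tissues. Psmb8 and Psmb9 reached 0.93, 0.75 and 0.67, and Psmb9 and Tap1, which start 225 bases apart, 0.55, 0.38 and 0.53. Points of a pair share their library and its scaling, and heavy chain genes can share reads.

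The 5 genes outside the list whose centred values were most like the members' mean, over 11330 genes tested in the 3 tissues, were H2-Eb1 (mean r over tissues 0.69), H2-T23 (0.69), Cd74 (0.68), H2-Ab1 (0.67) and H2-T22 (0.67). H2-Eb1 and H2-Ab1 encode class II chains, Cd74 the class II invariant chain, and H2-T23 and H2-T22 nonclassical class I heavy chains. The fixed lists were compared through the log2 of their summed CPM, in which the most abundant genes of a list weigh most. The sum of class II genes went with the members' mean with r values of 0.78 (adipose tissue), 0.59 (liver) and 0.71 (muscle). That of interferon targets stood at 0.67, -0.165 and 0.78, and that of T and NK cell markers at 0.46, 0.42 and 0.69. In the same order, the other immunoproteasome and activator genes stood at 0.80, 0.19 and 0.11, the constitutive proteasome at 0.75, 0.49 and -0.15, other genes of the MHC region at 0.62, 0.23 and -0.34, and pancreas markers at 0.61, 0.36 and 0.30. Endothelial markers stood at -0.20, -0.10 and -0.02. These values are over libraries centred within groups and carry no test.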

How the data were processed

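RNA sequencing values of 3 tissues in 64 libraries were used. The deposited values are a signal of reads per gene that the authors scaled with 1 factor per library in CLC and named CPM, per the file headers. Columns summed to between 0.529 and 1.64 M, and the header's CPM is therefore kept as a name only. Within 0.1 read, 100% of values were whole multiples of the worth of 1 read, and depth and reads for edgeR and DESeq2 come from that step. How reads were aligned, and whether counting used strand, is not given in the sources used here. GRCm38.p6 and mm10 are named in the submitters' processing notes, and RefSeq tables of GRCm38.p6 gave symbols, positions and promoters.

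A gene was kept if it exceeded 1 CPM in a number of libraries no smaller than the smallest group. limma 3.58.1 was run in R 4.3.3 on log2 of CPM plus a pseudocount of 1 (moderated variances with a trend, Benjamini-Hochberg adjustment over all genes tested, called at an adjusted p under 0.05). A difference on this scale understates that of low genes. Fits held the 4 groups of a tissue (14286 genes in adipose tissue, 12924 in liver, 13237 in muscle) or the WT libraries of an age (14087 and 14454 genes at 5 and 20 months). Alternatives were edgeR 4.0.16, DESeq2 1.42.0, library totals, a pseudocount of 0.1, no filter, sex, leaving out libraries, and a replicate block. The liver fits were also run on simulated counts with known changes and the same spread setting for every gene. The outcome of that run is not reported here, and the other tissues were not simulated. The members and the gene lists were chosen with earlier results of these data known. The genes named are the members, Myc, up to 5 called genes of a list with the largest differences in a comparison, the 5 genes most like the members, and others where the text says so. Python 3.11.15 and pandas 2.3.3 were used for summaries. Some genes of the lists are not reported here.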

Additional observations from a re-analysis of the deposited data

Results flagged for a closer look

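Among 120 combinations of a member and a group, 7 held a library set apart from the others of its group by Dixon's criterion, which flags about 1 group in 20 by chance. Tap1 was lowest in W5L5277 (WT liver, 5 months) at 25.33 CPM, against 33.0 to 36.2 in the other libraries. Tap2 was highest in W18S72 (WT muscle, 20 months) at 14.62 CPM, against 9.58 to 10.96. Tapbp was lowest in W5F5299 (WT adipose tissue, 5 months) at 141.8 CPM, against 213 to 255, and that library also held 933 CPM of summed epididymis and gonad markers.

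In K5F5118 (KO adipose tissue, 5 months) Psmb8 stood at 64.93 CPM, against 19.3 to 34.8, and Psmb9 at 35.89 CPM, against 9.49 to 12.1. Psmb9 was also highest in W5L5005 (WT liver, 5 months) at 14.91 CPM, against 7.81 to 9.45, and in W5S5277 (WT muscle, 5 months) at 3.107 CPM, against 1.30 to 1.89.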

How the results depend on the processing

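Counts below are of the 7 partners between genotypes and ages and of all 10 members between tissues. DESeq2 called 1 partner each for KO against WT at 5 months in adipose tissue (H2-K1) and liver (Psmb9), where limma called 0. With age, the single call in WT liver (Tap2) went to 0 scaled to library totals, with sex as a covariate and without the Xist libraries. That in KO liver went to 0 with edgeR, library totals, a pseudocount of 0.1, no filter or a sex covariate, and without the Xist libraries Psmb8 was called in place of Tap2. That in KO muscle (Tapbp) went to 0 with library totals, a pseudocount of 0.1 or no filter. WT muscle gained 1 call (Tapbp) with a sex covariate and KO adipose tissue 1 (Tap2) without the Xist libraries. Leaving out 1 library gave 0 to 1 calls for KO against WT in liver at 5 months and for age in WT liver, KO liver, WT muscle (1 without W5S5041) and KO muscle, and 4 to 5 for liver against adipose tissue at 5 months. The other counts did not move when 1 library was left out. Scaled to library totals, liver against adipose tissue at 5 months had 10 calls, and B2m (-0.44 and -0.31 at 5 and 20 months), Tap1 (-0.91 and -0.91) and H2-Q7 (-0.026 at 20 months) changed sign. Without the Xist libraries, which leaves 2 KO muscle libraries at 5 months, H2-Q4 differed by 1.597 between genotypes, the differences with age in KO muscle were -0.98 for Tap1, -0.96 for H2-Q4 and -0.76 for H2-Q7, and the interaction of H2-Q4 was -0.64. The cause of these shifts was not tested. Numbers in the 5-month codes recur between tissues. This was checked in WT libraries only, where 11 of 14 same-number pairs correlated above 0.1 (lowest -0.139). There 14 of 28 checks found a library best correlated with its own number. The KO codes were not checked. With the replicate block the tissue comparisons at 5 months kept counts of 5, 10 and 10. Depth limits the lowest values, such as Psmb9 with 19 to 140 reads per muscle library.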
